A study of Mus musculus with 96 samples.

Results

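Voltage-gated channels of the Kv4 family carry the subthreshold A-type potassium current, which activates below the action potential (AP) threshold, inactivates rapidly and, in many neurons, holds back the first AP of a response to depolarization. The channel is a complex. Its pore is built from Kv4 α subunits, encoded by *Kcnd1*, *Kcnd2* and *Kcnd3*. KChIPs, small calcium-binding proteins encoded by *Kcnip1*, *Kcnip2*, *Kcnip3* and *Kcnip4*, bind the cytoplasmic side of the pore, promote its surface expression and shape its inactivation. The DPP-like proteins encoded by *Dpp6* and *Dpp10* are single-pass membrane proteins related to dipeptidyl peptidases without enzyme activity, and they speed up gating and shift it to more negative potentials. Delayed firing of lateral olivocochlear neurons (LOCs) has been linked to A-currents, which is the reason for setting these genes beside AP latency.

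The 9 genes were found by their Ensembl identifiers among the 38887 genes of the Patch-seq table, and their names were taken from Gencode vM21. The libraries came from single neurons of the lateral superior olive (LSO), an auditory brainstem nucleus, in slices of wild-type C57BL/6J mice of both sexes around hearing onset, at postnatal day 11. Each neuron was first recorded with a patch pipette, and its cytoplasm was then drawn into the pipette, so that each library is 1 neuron with a labelled firing pattern. Onset neurons answered depolarization with short-latency APs at its beginning and Sustained neurons fired throughout; both are principal neurons (pLSOs), the ascending cells of sound localization. LOCs, labelled Delayed, project back to the cochlea. Negative controls were pipettes that touched the slice without harvesting a neuron. The labels name no transgene or treatment for any group. Of 86 neurons and 10 negative controls, 8 libraries whose labels and expression had been found at odds in earlier work on these data, or whose values were in doubt, were left out. This left 41 Onset and 11 Sustained neurons, together 52 pLSOs, as well as 28 LOCs and 8 negative controls.

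Which animal a neuron came from is not labelled, so a group is treated as 1 sample. No test, standard error or p-value was therefore made from the neurons. The 95% intervals of shares are exact (Clopper-Pearson) and include no error beyond that of counting, and SDs describe the spread over neurons. A gene was counted as detected at 1 TPM or more, where TPM are transcript units scaled to the same total in each library. Kept neurons had between 1175 and 6276 detected genes, with medians of 2488 in Onset neurons, 2618 in Sustained neurons and 2394 in LOCs, whereas negative controls had 285 to 1271. The labels were checked with 12 marker genes that the study had chosen on these libraries, which is no independent evidence. All 6 pLSO markers were found in a higher share of pLSOs and all 6 LOC markers in a higher share of LOCs, with a summed level of the pLSO markers of 15 to 1468 TPM in pLSOs against 0 to 148 TPM in LOCs.

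The scale of the deposited TPM appears to differ between the 9 genes, and this bears on what a zero means. In rows 1801 to 3600 of the table, the lowest values follow the gene lengths sorted in ascending order along the rows, not each gene's own length. None of the 9 genes lies in these rows, so the scale used for them is an extrapolation that was not checked. On this scale, 1 read is estimated to be worth 0.0465 TPM for *Kcnip1*, 0.0363 TPM for *Kcnd2*, 0.0358 TPM for *Dpp6* and 0.0195 TPM for *Kcnip3* in the median neuron. Because the values are whole numbers, about 10.8 reads of *Kcnip1*, 13.8 of *Kcnd2*, 14.0 of *Dpp6* and 25.7 of *Kcnip3* were needed before a value of 1 appeared. The corresponding estimates were 6.60 reads for *Kcnd3*, 4.93 for *Dpp10* and 2.44 for *Kcnip4*, and a single read sufficed for *Kcnip2*. A zero for *Kcnip3* or *Kcnd2* thus leaves more room for undetected transcripts than a zero for *Kcnip2*. Between the classes the limits were similar, at 11.7 reads of *Kcnip1* in Onset neurons, 12.0 in Sustained neurons and 9.0 in LOCs. Levels are compared between genes only after rescaling to the gene's own exon length, called rescaled TPM below.

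Of the pore subunits, *Kcnd2* was found in a larger share of LOCs than of pLSOs, *Kcnd3* in 1 neuron of each class and *Kcnd1* in none. *Kcnd1*, which encodes Kv4.1 and lies on chromosome X (GRCm38, 7822289 to 7838280), was listed at 0 in all 80 neurons and in all 8 negative controls. For the 52 pLSOs, 0 detections allow a share of up to 5.77%, and for the 28 LOCs up to 10.7%. Among the 100 rows on either side of it, the lowest positive values were at 8 TPM in the median neuron, so that rounding hid little there.

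*Kcnd2*, which encodes Kv4.2 (chromosome 6, 21215503 to 21729805), was the pore subunit found most often. It was detected in 7 of 28 LOCs (25.0%, interval 10.7 to 44.9%), in 1 of 11 Sustained neurons (9.09%, 0.230 to 41.3%) and in 0 of 41 Onset neurons, which allows a share of up to 7.32% by the limit of 3 counts (exact interval 0 to 8.60%). The values in the 7 LOCs were 1, 2, 2, 6, 7, 7 and 50 TPM, the Sustained neuron had 1 TPM, and all negative controls were at 0. Among 52 pLSOs, 1 neuron (1.92%) thus carried *Kcnd2*, a difference of 23.1 percentage points from LOCs. The mean of log2(TPM + 1) was 0.67 (SD 1.38, n = 28) in LOCs and 0.02 (SD 0.14, n = 52) in pLSOs. A single LOC, with an AP latency of 49.8 ms, set much of the LOC mean, which was 2.68 TPM with it and 0.926 TPM without it. The 7 LOCs with *Kcnd2* had summed LOC markers of 560 to 2932 TPM and pLSO markers of 0 to 6 TPM. They had a median of 2932 detected genes against 2231 in the 21 LOCs without it, and a median of 3681 against 1584 TPM for the summed neuronal markers; the part of depth in the share was not tested.

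*Kcnd3*, which encodes Kv4.3 (chromosome 3, 105452330 to 105674002), was found in 1 Sustained neuron at 3 TPM and in 1 LOC at 5 TPM. No Onset neuron and no negative control carried it. A gene on the opposite strand, *Kcnd3os*, shares 165 exonic bases with *Kcnd3*, but it was not detected in any of the 80 neurons. Over all 3 pore genes, a pore subunit was found in 8 of 28 LOCs (28.6%, 13.2 to 48.7%), 2 of 11 Sustained neurons (18.2%, 2.28 to 51.8%) and 0 of 41 Onset neurons.

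**Figure D1:**
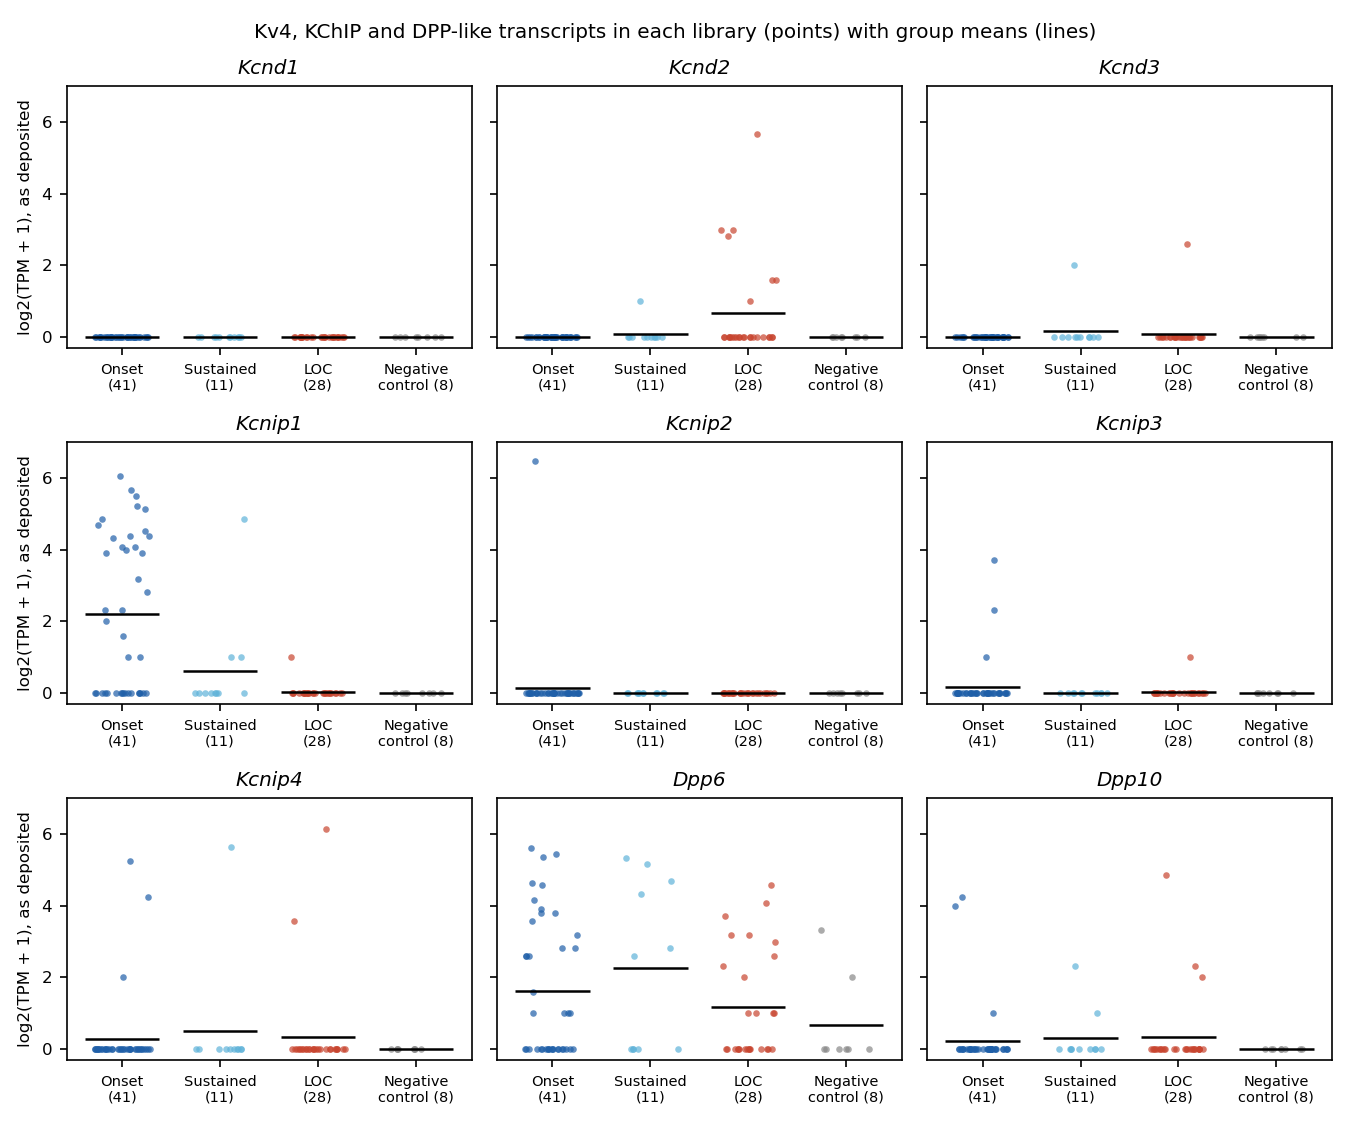
Deposited level of each gene as log2(TPM + 1) on the vertical axis, with 1 point per library and a line at the group mean, for 41 Onset neurons, 11 Sustained neurons, 28 LOCs and 8 negative controls. *Kcnip1* reaches 66 TPM in Onset neurons and 1 TPM in LOCs, *Kcnd2* reaches 50 TPM in LOCs and 0 in Onset neurons, and *Dpp6* spreads over all groups.

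Among the KChIPs, *Kcnip1* stood in the opposite relation to the classes. *Kcnip1*, which encodes KChIP1 (chromosome 11, 33629339 to 33993152, minus strand), was detected in 24 of 41 Onset neurons (58.5%, 42.1 to 73.7%), 3 of 11 Sustained neurons (27.3%, 6.02 to 61.0%) and 1 of 28 LOCs (3.57%, 0.0904 to 18.3%). All 8 kept negative controls were at 0. In the 41 Onset neurons its level ranged from 0 to 66 TPM with a median of 3 TPM, and in the 24 with a value the median was 16 TPM. The 11 Sustained neurons held 28 TPM in 1 neuron, 1 TPM in another 2 and 0 in the rest. The 2 at 1 TPM had 6276 and 4751 detected genes, against a median of 2618 in Sustained neurons. The single LOC with *Kcnip1* had 1 TPM, the lowest value the table can show.

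Between pLSOs and LOCs the share with *Kcnip1* differed by 48.3 percentage points, as 27 of 52 pLSOs (51.9%, 37.6 to 66.0%) carried it. The paper already lists *Kcnip1* among its differentially expressed genes of pLSOs, from the same libraries, so this is no independent result. The mean of log2(TPM + 1) was 1.88 (SD 2.15, n = 52) in pLSOs and 0.04 (SD 0.19, n = 28) in LOCs, a difference of 1.85. The high values were not carried by a single neuron, since the pLSO mean was 9.58 TPM with and 8.47 TPM without the neuron of the highest value. At a threshold of 10 TPM, 17 pLSOs (32.7%) and no LOC were left. Onset neurons with *Kcnip1* had a median of 2828 detected genes and those without it 2389, and the summed neuronal markers had medians of 5029 and 2480 TPM. The part of library depth in the presence of *Kcnip1* within Onset neurons was not tested. In neurons with 2000 or more detected genes, the difference between pLSOs and LOCs was 52.3 percentage points.

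*Kcnip2*, which encodes KChIP2 (chromosome 19, 45791839 to 45816061), was detected in 1 of 80 neurons, an Onset neuron with 87 TPM. Although this is the largest deposited value of all 9 genes, it corresponds to about 122 reads and only 22.8 rescaled TPM. For comparison, the 66 TPM of *Kcnip1* in another Onset neuron stood for about 1353 reads and 1016 rescaled TPM. In the neuron with *Kcnip2*, 28 TPM of *Kcnip1* became 80.9 rescaled TPM, so the low rescaled value of *Kcnip2* depends on this library as well as on the gene. *Kcnip3*, which encodes KChIP3, a protein also described as the transcriptional repressor DREAM and as calsenilin (chromosome 2, 127456498 to 127522094), was found in 3 Onset neurons at 1, 4 and 12 TPM and in 1 LOC at 1 TPM. On the rescaled scale, the highest of these neurons had 658 TPM, because its row lies far down the table. *Kcnip4*, which encodes KChIP4 (chromosome 5, 48389502 to 49524907), was found in 3 Onset neurons at 3, 18 and 37 TPM, in 1 Sustained neuron at 49 TPM and in 2 LOCs at 11 and 70 TPM. It was thus present in 7.69% of pLSOs and 7.14% of LOCs. In the 4 pLSOs with *Kcnip4* its median was 140 rescaled TPM, and in the 27 with *Kcnip1* that of *Kcnip1* was 239. *Kcnip4* shares 168 exonic bases with *5730480H06Rik* and 99 with *Gm20700* on the opposite strand, which were detected in 4 and 2 neurons, so that its few values are uncertain to that extent.

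The DPP-like genes were found in both classes, in 57.7% of pLSOs (43.2 to 71.3%) and 50.0% of LOCs (30.7 to 69.3%), and in neurons with 2000 or more detected genes in 65.9% (50.1 to 79.5%, n = 44) and 45.5% (24.4 to 67.8%, n = 22). *Dpp6* (chromosome 5, 26817203 to 27727505) was the most widespread member beside *Kcnip1*, with 21 of 41 Onset neurons (51.2%, 35.1 to 67.1%), 6 of 11 Sustained neurons (54.5%, 23.4 to 83.3%) and 13 of 28 LOCs (46.4%, 27.5 to 66.1%). The pLSO share of 51.9% was 5.49 percentage points above that of LOCs, and each share lay within the interval of the other. In Onset neurons the level ranged from 0 to 48 TPM with a median of 1 TPM, and in LOCs from 0 to 23 TPM with a median of 0. The 6 Sustained neurons with *Dpp6* had 5, 6, 19, 25, 35 and 39 TPM. The mean of log2(TPM + 1) was 1.77 (SD 2.01, n = 52) in pLSOs and 1.17 (SD 1.52, n = 28) in LOCs. This difference of 0.60 was smaller than either SD, which is a spread over neurons and not an error of the difference. The differences of *Kcnip1* and *Kcnd2* were also smaller in size than the larger SD of their classes. The share with 10 TPM or more was 26.9% of pLSOs (14 neurons) and 10.7% of LOCs (3 neurons). The difference between the shares was thus 5.49 points at 1 TPM, 12.1 at 2 TPM, 17.3 at 5 TPM and 16.2 at 10 TPM. In neurons with 2000 or more detected genes it was 18.2 points at 1 TPM.

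*Dpp6* was also the only member listed above 0 in the kept negative controls, at 3 and 9 TPM in 2 of 8 (25.0%, 3.19 to 65.1%). In negative controls 1 read of *Dpp6* was estimated to be worth 0.938 TPM, as opposed to 0.0330 TPM in Onset neurons. The kept negative controls held oligodendrocyte markers, with a median of 1257 TPM for the summed markers *Mbp*, *Mobp* and *Mog* against 106 TPM in pLSOs and 178 TPM in LOCs. They also held neuronal markers, with a median sum of 3130 TPM (288 to 11406 TPM) against 4315 TPM in pLSOs and 2643 TPM in LOCs. In LOCs with and without *Dpp6*, the medians of the oligodendrocyte sum were 140 and 214 TPM, and in Onset neurons 44 and 134 TPM. The astrocyte sum had medians of 11 and 0 TPM in LOCs with and without *Dpp6*, and of 0 and 4 TPM in Onset neurons. In Onset neurons, the level of *Dpp6* was higher with a higher number of detected genes (Spearman's rho = 0.43, n = 41, across neurons that share the library preparation and may share animals), and carriers had a median of 2983 detected genes against 2280; in LOCs the coefficient was -0.04 (n = 28).

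*Dpp10* (chromosome 1, 123321471 to 124045559, minus strand) was rare in every class. It was found in 3 Onset neurons at 1, 15 and 18 TPM, in 2 Sustained neurons at 1 and 4 TPM and in 3 LOCs at 3, 4 and 28 TPM. The shares were 9.62% of pLSOs (3.20 to 21.0%) and 10.7% of LOCs (2.27 to 28.2%). No kept negative control carried it.

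**Figure D2:**
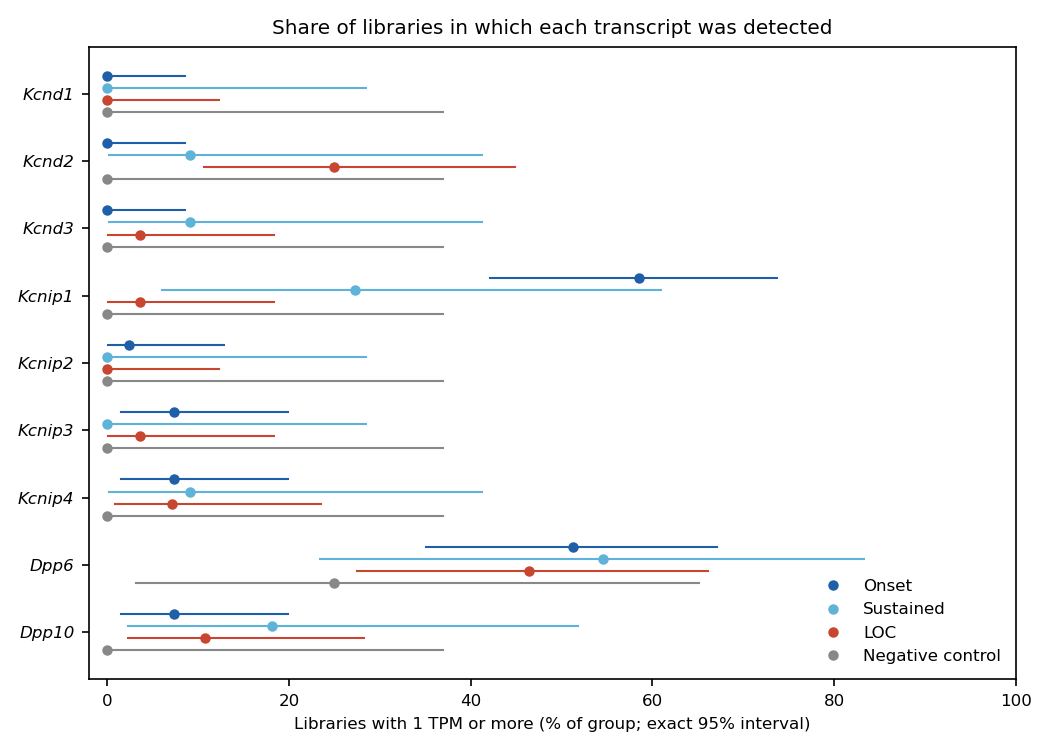
Share of libraries with 1 TPM or more of each gene (horizontal axis, percent of the group) with the exact 95% interval as a line, for Onset neurons, Sustained neurons, LOCs and negative controls. The interval of *Kcnip1* in Onset neurons (42.1 to 73.7%) lies above that in LOCs (0.0904 to 18.3%), and that of *Kcnd2* in LOCs (10.7 to 44.9%) lies above that in Onset neurons (0 to 8.60%), whereas the intervals of *Dpp6* overlap in all groups.

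By a rule of size, a share of at least 10% in the higher class and at least 2 times the share in the other, 1 of the 9 genes (*Kcnip1*) was higher in pLSOs and 1 (*Kcnd2*) in LOCs. By the same rule, 1370 of 10319 genes detected in at least 5% of neurons (13.3%) were higher in pLSOs and 1002 (9.71%) in LOCs. Of the 9 genes, 6 passed this filter, and without it the shares were 3.52% and 2.72% of 38887 genes. A single gene in each direction cannot be set apart from these shares. At 10 TPM the rule called *Kcnip1* and *Dpp6* as higher in pLSOs and no member as higher in LOCs, since 1 LOC was left with *Kcnd2*. The median difference of the shares, pLSO minus LOC, was 0.549 percentage points over the 9 genes and 2.20 points over all genes tested. Between Onset and Sustained neurons the rule named *Kcnip1* as higher in Onset neurons and *Dpp10* as higher in Sustained neurons, beside 7.74% and 17.6% of 10012 genes. With 11 Sustained neurons, 2 neurons suffice for such a call, as was the case for *Dpp10*. The intervals for *Kcnip1* in Onset and Sustained neurons overlapped.

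After rescaling to the gene's own length, the order of mean levels differed between the classes. In pLSOs *Kcnip1* was highest with a mean of 141 rescaled TPM (SD 227), followed by *Dpp6* with 81.6 (SD 135), *Kcnip3* with 19.8 (SD 99.1) and *Kcnip4* with 12.1 (SD 53.6), while *Dpp10*, *Kcnd2*, *Kcnip2* and *Kcnd3* were at 0.340 to 2.28. In LOCs *Kcnd2* came first with 56.6 (SD 205), which fell to 18.7 without its highest neuron, and *Dpp6* second with 26.3 (SD 46.2), followed by *Kcnip4* with 18.4 (SD 84.7). Without their highest neurons, *Dpp6* in LOCs was at 20.7 and *Kcnip4* at 2.59. In pLSOs *Kcnip3* fell to 7.27 in the same way, while *Kcnip1* was at 123 and *Dpp6* at 72.6. All SDs exceeded the differences between neighbours in the order of means, so the order is a description of the means and not of single neurons. In the LOCs with *Kcnd2* the values were 24.6 to 1079 rescaled TPM. Values rounded to 0 could not be rescaled, so these means rest on floors that differ between genes. In single neurons, a deposited 1 TPM was worth 68.5 rescaled TPM for *Kcnip3*, 24.6 for *Kcnd2* and 1.91 for *Dpp10*.

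A Kv4 channel with its full set of partners would need a pore, a KChIP and a DPP-like subunit in the same cell. In Onset neurons, 36 of 41 (87.8%, 73.8 to 95.9%) held a KChIP or DPP-like transcript without any pore transcript. A KChIP was found in 26 of them (63.4%), a DPP-like gene in 23 (56.1%) and both in 13 (31.7%). *Kcnip1* and *Dpp6* occurred together in 11 Onset neurons (26.8%, 14.2 to 42.9%), *Kcnip1* alone of this pair in 13, *Dpp6* alone in 10, and neither in 7. In LOCs a KChIP was found in 3 of 28 neurons (10.7%, 2.27 to 28.2%), and each of these 3 also held a pore transcript. They had 2792, 2932 and 3530 detected genes, against a median of 2394 in LOCs, and the part of depth was not tested. A pore together with a DPP-like gene was found in 4 LOCs (14.3%, 4.03 to 32.7%), and in 3 of them this was *Kcnd2* with *Dpp6*.

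All 3 kinds of subunit were found together in 2 of 80 neurons. One was a Sustained neuron with *Kcnd2* and *Kcnip1* at 1 TPM each and *Dpp10* at 4 TPM, and the other a LOC with *Kcnd2* at 2, *Kcnip1* at 1 and *Dpp10* at 28 TPM, the same combination of 3 genes. This Sustained neuron had 4751 detected genes and this LOC 2932. The LOC of highest *Kcnip4*, 70 TPM, was also the LOC with *Kcnd3*, at 5 TPM. Another LOC held *Kcnd2* at 6, *Kcnip3* at 1 and *Kcnip4* at 11 TPM. No neuron held more than 3 members, and the mean number was 1.34 (SD 0.794) in Onset neurons, 1.27 (SD 1.10) in Sustained neurons and 1.00 (SD 0.981) in LOCs. No member was detected in 5 Onset neurons, 3 Sustained neurons and 10 LOCs. With the detection limits given above, a missing partner does not show that it was absent from the cell.

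**Figure D3:**
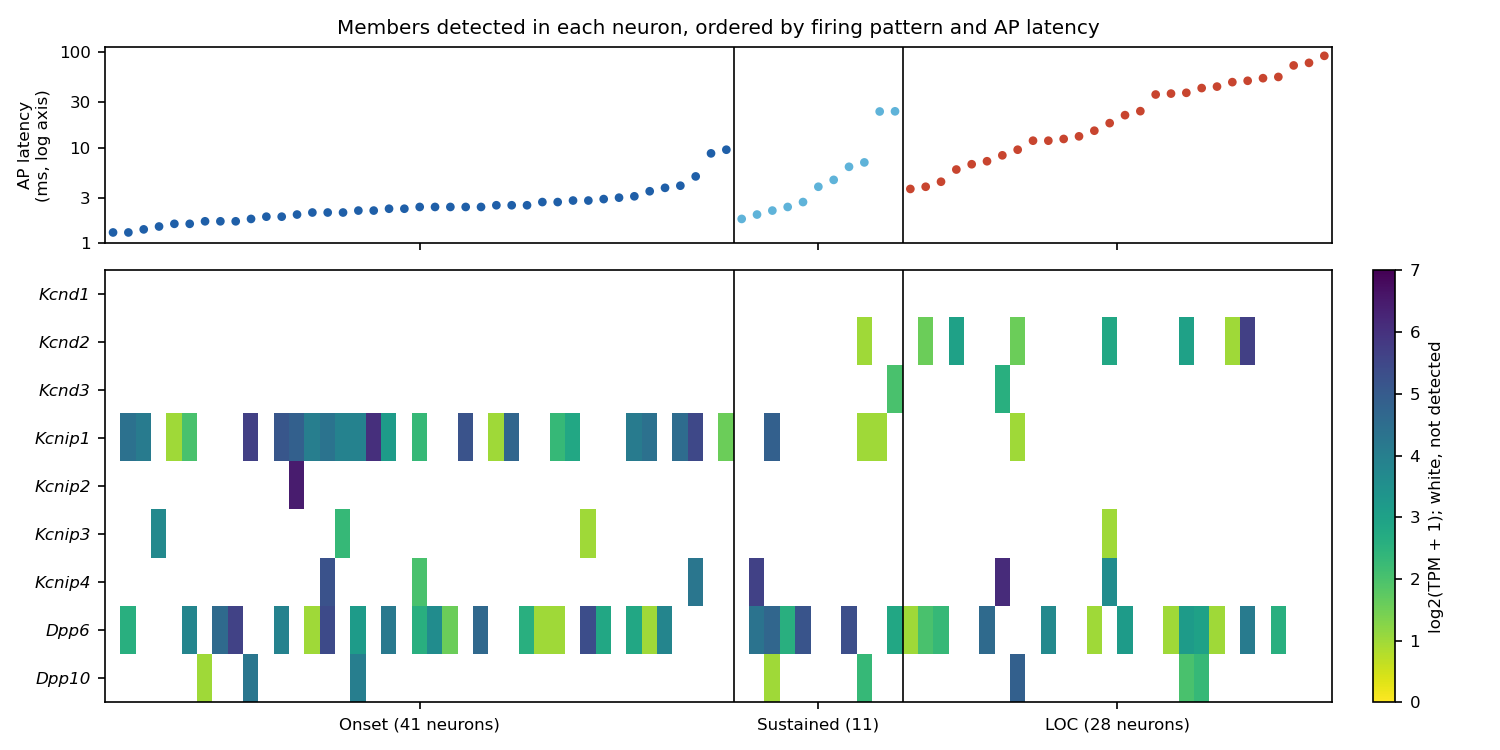
Detected members in each of the 80 neurons (columns), grouped by firing pattern and ordered by AP latency within each group, with the latency in ms on a log axis above and the level as log2(TPM + 1) in colour; white fields are not detected. Pore genes appear in 8 LOCs and 2 Sustained neurons and in no Onset neuron, and *Kcnip1* fills much of the Onset block.

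AP latency at rheobase differed between the classes, with medians of 2.4 ms in Onset neurons (1.3 to 9.5 ms), 3.9 ms in Sustained neurons (1.8 to 23.9 ms) and 19.9 ms in LOCs (3.7 to 90.7 ms). The ranges overlapped. A correlation over all neurons would include the difference between the classes, and latency was therefore examined within them. Within LOCs, where latency varied most, the coefficients of both members with 5 or more carriers were small over all 28 neurons. For *Kcnd2*, Spearman's rho was -0.08 and Pearson's r of log2(TPM + 1) with log10 latency 0.02 (n = 28 neurons, 7 carriers). Without the 2 LOCs farthest from the median latency, rho was -0.01, and in the 22 LOCs with 2000 or more detected genes it was -0.27. The 7 carriers had latencies of 3.9, 5.9, 9.5, 18.0, 37.3, 48.2 and 49.8 ms, with a median of 18.0 ms against 21.8 ms in the 21 LOCs without *Kcnd2*. *Kcnd2* was found in 4 of 14 LOCs below the median latency and in 3 of 14 at or above it. None of the 3 LOCs with the longest latencies, 72.0 to 90.7 ms, held a pore transcript, beside 8 of all 28 LOCs with one. These 3 all had a labelled rheobase of 0 pA. The LOC of 90.7 ms had 1175 detected genes, the lowest number among the kept neurons.

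For *Dpp6* in LOCs, rho was also -0.08 and r -0.06, and *Dpp6* was found in 6 of 14 LOCs below and 7 of 14 at or above the median latency. Carriers had a median latency of 21.8 ms (3.7 to 54.6 ms) and the others 18.0 ms (5.9 to 90.7 ms). Over all 5365 genes detected in 5 or more LOCs the median rho was -0.07, 2.37% had a rho of 0.3 or more and 10.5% a rho of -0.3 or less. The number of detected genes itself fell with latency in LOCs (rho = -0.33, n = 28), and its part in these coefficients was not tested. In 18 of the 28 LOCs the labelled rheobase was 0 pA, that is, without injected depolarizing current. Their latency is therefore not a delay after a depolarizing step, and the coefficients over all 28 LOCs include them. These 18 had a median latency of 39.2 ms and the other 10 of 13.4 ms, and *Kcnd2* was found in 4 of the former and 3 of the latter.

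Among the KChIP carriers in LOCs, the latencies were 8.3, 9.5 and 18.0 ms, all below the class median. The LOC with *Kcnd3* had a latency of 8.3 ms. The LOCs with *Dpp10* had 9.5, 37.3 and 41.8 ms.

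Within Onset neurons the coefficients of *Kcnip1* and *Dpp6* with latency were small as well. For *Kcnip1* rho was -0.02 and r -0.03, and for *Dpp6* rho was -0.04 and r -0.15 (n = 41 neurons). *Kcnip1* was found in 13 of 20 Onset neurons below the median latency of 2.4 ms (65.0%) and in 11 of 21 at or above it (52.4%), and *Dpp6* in 9 of 20 (45.0%) and 12 of 21 (57.1%). Over 6901 genes, 3.2% had a rho of 0.3 or more and 2.16% a rho of -0.3 or less. All 21 Onset neurons with *Dpp6* had latencies of 1.3 to 3.8 ms, whereas the 20 without it included the longest of 9.5 ms. Carriers also had more detected genes, with a median of 2983 against 2280, and the part of depth in this contrast was not tested.

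In the 11 Sustained neurons, the 2 with a pore transcript had latencies of 7.0 ms (*Kcnd2*) and 23.9 ms (*Kcnd3*), both above the group median of 3.9 ms. The Sustained neuron of nearly equal latency, 23.8 ms, held *Kcnip1* at 1 TPM and no other member. The 6 with *Dpp6* had a median latency of 2.55 ms and the 5 without it 4.6 ms. With so few neurons these values are given without a coefficient.

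**Figure D4:**
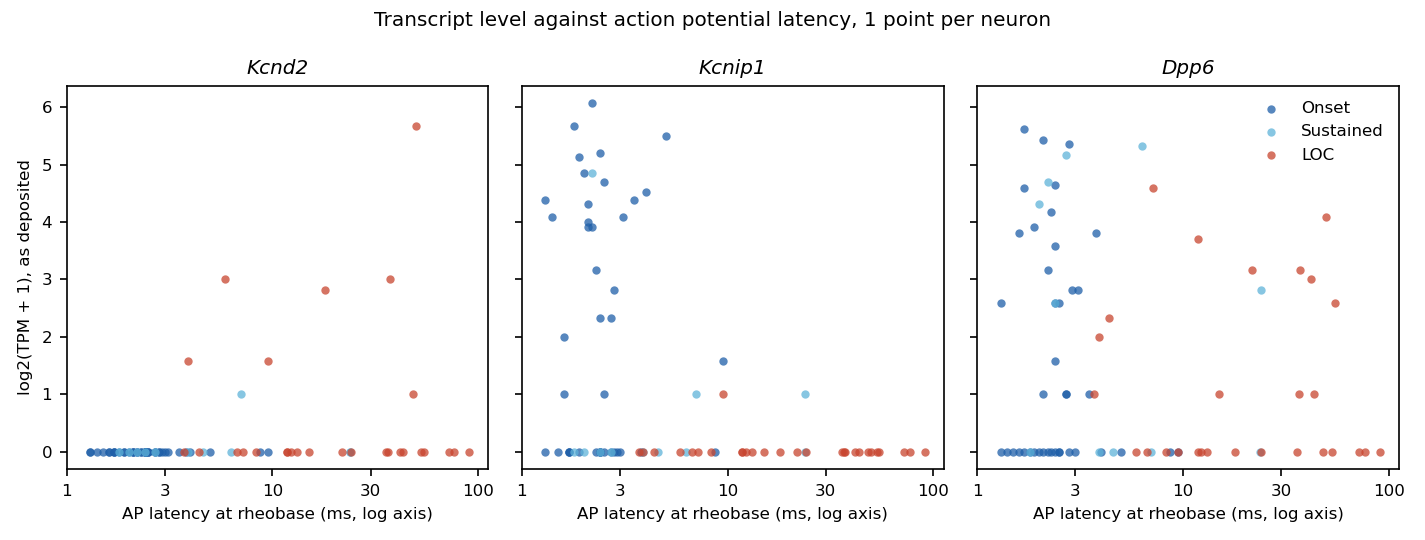
Level of *Kcnd2*, *Kcnip1* and *Dpp6* as log2(TPM + 1) against AP latency at rheobase in ms (log axis), with 1 point per neuron coloured by firing pattern. *Kcnd2* appears in LOCs between 3.9 and 49.8 ms (rho = -0.08), and *Kcnip1* is concentrated in Onset neurons (rho = -0.02).

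The recorded features, latency included, were compared between carriers and non-carriers within a class, in 40 combinations of 10 features with 4 pairs of gene and class. The coefficients of largest size were those of *Kcnd2* with the voltage sag in LOCs (rho = 0.38, n = 28) and of *Kcnip1* in Onset neurons with AP halfwidth (rho = 0.38), sag (0.35) and input resistance (0.33, n = 41). The sag of LOCs was small, with a median of 1.2 mV (0.1 to 1.7 mV) with *Kcnd2* and 0.7 mV (-0.5 to 2 mV) without it. Onset neurons with *Kcnip1* had a median sag of 10.7 mV (1.8 to 14.7 mV) and those without it 5.1 mV (3.1 to 15.5 mV). Their median AP halfwidth was 0.43 ms against 0.31 ms and their median input resistance 43.2 MΩ against 32.0 MΩ. The ranges overlapped widely in each case, and the largest of 40 coefficients are given here without any correction.

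Genes whose products assemble with Kv4 channels or resemble their subunits were set beside the 9 genes. Of 34 such genes, 25 were detected in at least 5% of neurons, and by the rule of size 5 were higher in pLSOs and 5 in LOCs, which is 20% in each direction beside 13.3% and 9.71% of all genes. Among the other inactivating pore subunits, *Kcnc4* (Kv3.4) was found in 3.85% of pLSOs and 35.7% of LOCs, and *Kcna4* (Kv1.4) in 1 neuron of each class. LOCs thus held *Kcnc4*, an A-type pore subunit of the Kv3 family, in more neurons than *Kcnd2*, with 10 and 7 of 28 neurons, although about 1.85 reads sufficed for *Kcnc4* and 1 of 8 negative controls also held it. Of the low-threshold Kv1 genes, *Kcna6* was found in 15.4% of pLSOs and no LOC, which allows up to 10.7%. *Kcna1*, which the rule did not call, was found more often, in 75% of pLSOs and 42.9% of LOCs. Of the Kv β genes, *Kcnab3* was found in 42.3% of pLSOs and 14.3% of LOCs and *Kcnab2* in 26.9% and 10.7%. *Kcnab2* was also found in 1 of 8 negative controls.

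The neuronal calcium sensors, EF-hand proteins related to the KChIPs, went both ways. *Hpcal1* was found in 32.7% of pLSOs and 10.7% of LOCs, *Ncald* in 15.4% and 53.6%, and *Hpcal4* in 1.92% and 25.0%. *Hpcal1* and *Ncald* were each also found in 2 of 8 negative controls, and *Hpcal4* in 1. Of the enzymatically active relatives of the DPP-like proteins, *Dpp7* was found in 28.8% of pLSOs and 7.14% of LOCs and *Dpp9* in 3.85% and 21.4%. *Dpp7* was also found in 1 of 8 negative controls. Of the kinases and scaffold proteins, *Camk2b* was found in 28.8% of pLSOs and 64.3% of LOCs, and in 3 of 8 negative controls. Of the 5 KCNE genes, 4 were not detected in any neuron.

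The genes whose level was most like that of a member were named by rank correlation, as a description across neurons that share depth and preparation. Coefficients over all 80 neurons also include the difference between the classes, as *Kcnip1* was found in 51.9% of pLSOs and 3.57% of LOCs. The paper lists *Cplx1* among its pLSO genes. For *Kcnip1* over the 80 neurons the most similar genes were *Chd9* (rho = 0.60), *Zmat4* (0.58) and *Cplx1* (0.51), and *Cplx1*, found in 64 of the 80 neurons, occurred together with *Kcnip1* in 27. Within Onset neurons they were *Yars* (0.56), *Ethe1* (0.55) and *Rps13* (0.55). For *Dpp6* they were *Nrxn2* (0.42), *Serf2* (0.41) and *Esf1* (0.41) over all neurons and *Lmna* (0.72), *Brd8* (0.63) and *Morf4l2* (0.58) within Onset neurons, where *Dpp6* itself had a rho of 0.43 with the number of detected genes. The lists over all neurons and within Onset neurons shared no gene for either member.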

How the data were processed

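The cytoplasm of 86 LSO neurons and 10 negative controls was sequenced by the authors after a modified Smart-seq2 protocol with Nextera XT libraries. Per the labels, reads were processed with Trim Galore 0.4.2, STAR, Picard 1.115 and featureCounts on mm10. The deposited score values are TPM rounded to whole numbers by the authors, and each kept neuron sums to between 999773 and 1000021. The table holds no counts. Firing pattern and electrophysiological features were taken from the labels.

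Names, positions and exon lengths came from Gencode vM21 (GRCm38), in which 37570 of 38887 genes have a length; the paper names another release. The first 1676 rows, with the shortest assumed lengths, hold 62.4 to 79.1% of a neuron's TPM. Over rows 1801 to 3600, the lowest values in a library are inversely related to the gene lengths in ascending order along the rows less 80 bases. For the other rows from 1677 onwards this length was assumed without a check. Rescaled TPM are the deposited value times this length over the gene's own exon length, scaled to the same total in each library over rows 1677 onwards; *Kcnd1* lies before them. The value of 1 read in a library was estimated from the lowest values of rows 1677 to 2800, and reads needed for detection from a value of 0.5 before rounding. All of these are estimates.

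A gene was detected at 1 TPM or more. Log values are log2(TPM + 1), pseudocount 1. For 0 of n neurons, the limit is 3 over n. Spearman's rho is given for members in 5 or more neurons of a class. The genes named are the 9 members, related genes called by the rule of size with *Kcna1* and *Kcna4* beside them, and for members in 10 or more neurons the 3 genes of highest rho among genes in 10% or more of the neurons. The members, lists and left-out libraries were chosen with earlier results of these data known. Some genes of these lists are not reported here and were left out of their counts and sums. Scripts were tested on simulated data. Tools were SciPy 1.17.1, NumPy 2.4.6, pandas 2.3.3, matplotlib 3.10.9 and Python 3.11.15. Alternatives were other detection thresholds, pseudocounts, filters, rescaled values, all 86 neurons as labelled and neurons with 2000 or more detected genes.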

Additional observations from a re-analysis of the deposited data

Results flagged for a closer look

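*Dpp6* was at 9 TPM in 1 of the 8 kept negative controls, far from the next value of 3 TPM and from the 6 controls at 0. Of the 9 genes, only *Dpp6* had a value above 0 in these controls, so the other 8 could not be marked.

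In libraries left out of the comparisons, values above those of the kept negative controls were found for 4 genes. *Kcnip1* was at 8 TPM in 1 left-out negative control, which also had *Dpp10* at 1 TPM, and the other left-out negative control had *Dpp10* at 7 TPM. *Dpp6* was at 17 TPM in the left-out Sustained neuron, and *Kcnd3* was at 1 TPM in a left-out Onset neuron.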

How the results depend on the processing

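The difference in the share of neurons with *Kcnip1*, pLSO minus LOC, was 44.2, 36.5 and 32.7 percentage points at detection thresholds of 2, 5 and 10 TPM, and 54.8 in neurons between the quartiles of the estimated value of 1 read, an alternative chosen after seeing the data. For *Kcnd2* it was -21.4, -14.3 and -3.57 points at these thresholds, where 1 LOC was left at the last, and the log2 difference was -1.58 on rescaled values. For *Dpp6* it was 5.49 points at 1 TPM, 17.3 and 16.2 at 5 and 10 TPM, and, within the wide counting error, 12.1 at 2 TPM and 18.2 in neurons with 2000 or more detected genes. *Kcnip1*, Onset minus Sustained, was 29.9 points at 10 TPM, against 31.3 at 1 TPM. Within the wide counting error, it was 44.6 points at 2 TPM and 34.8 at 5 TPM. *Dpp10*, Onset minus Sustained, turned from -10.9 to 4.88 points at both 5 and 10 TPM. At 10 TPM the rule of size called 2 members higher in pLSOs (*Kcnip1* and *Dpp6*) and 0 in LOCs, beside 14.3% and 11.2% of 7469 genes. The other 56 of 69 recomputed values of the main results, including all correlations with latency and those with all 86 neurons, stayed within their counting intervals or spread, which are wide; the rho of *Kcnd2* with latency in LOCs was -0.27 with 2000 or more detected genes against -0.08. No paired analysis was possible because the replicate numbers are in accession order only and no result comes from a test. Leaving out single neurons was limited to that of highest value. Depth is known only by estimate, so a missing transcript is not shown to be absent, and with no animals in the labels the error between animals is unknown.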
